A study of Mus musculus with 12 samples.

Results

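The CCN genes, Ccn1 to Ccn6, were followed in subcutaneous white adipose tissue (scWAT) and brown adipose tissue (BAT) of mice with and without Lr11, the receptor gene also called Sorl1. The members were chosen by family, as every probe on the array whose accession belongs to one of the 6 genes, and Ccn4 led the choice because its signal was much lower in knockout scWAT. Those values therefore describe Ccn4 and are given without a test. The 6 genes have 7 probes, of 27235 probes for 20660 named genes, and 5 of the 6 genes passed the filter on dim probes, as did 14710 named genes in all.

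CCN proteins are secreted, cysteine-rich matricellular proteins. They lie in the extracellular matrix but act as signals, binding integrins, LRP co-receptors and heparan sulphate proteoglycans and tuning the activity of TGF-beta, BMP and WNT ligands. Ccn1 (formerly Cyr61) and Ccn2 (formerly Ctgf) are quick-responding targets of serum, stretch and the co-activators YAP and TAZ, whereas Ccn4 (Wisp1) and Ccn5 (Wisp2) were named for their induction by WNT1. In fat, Ccn5 is made by preadipocytes and holds back their commitment, and Ccn4 is an adipokine linked to obesity and inflammation.

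RNA of 4 groups of 3 samples, all from male C57Bl6/J mice aged 12 weeks, was hybridised to 12 one-colour Agilent arrays, 1 array a sample. Each genotype, WT and Lr11 -/-, gave a group of scWAT and a group of BAT samples, where Lr11 -/- mice carry the knockout on both alleles and WT mice were their littermates. All groups shared a high-fat diet (HFD), which the labels date both from weaning and as 4 weeks long. No label ties the scWAT and BAT samples of 1 animal, and no label says which samples came from separate animals, so p-values measure the spread between these arrays. Levels are log2 signal minus the 75th percentile of the same array, so that a level of 0 lies at that percentile and a difference of 1 is 2-fold. The percentile itself was at a signal of 374 to 632.

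Sorl1, the deleted gene, had levels of 0.91 to 1.15 in WT scWAT, -3.57 to -2.87 in Lr11 -/- scWAT, 0.11 to 1.21 in WT BAT and -3.93 to -2.45 in Lr11 -/- BAT, lower in every knockout array than in every WT array. All 8 adipocyte markers were well above background on every array. Several arrays stood apart from their groups. Arrays 2 and 3 of Lr11 -/- scWAT correlated with the mean of the WT BAT arrays at r = 0.974 and 0.975 over all tested probes. Their r with the mean of the Lr11 -/- BAT arrays was 0.978 and 0.978. With the mean of the other arrays of their own group it was 0.978 and 0.975. For array 1 these r were 0.940 with WT BAT, 0.931 with Lr11 -/- BAT and 0.928 with its own group. The summed level of 9 brown adipocyte markers on arrays 2 and 3, 11.8 and 11.9, lay at or above the 11.4 to 11.8 of BAT. That list was at 8.86 on array 1 of Lr11 -/- scWAT and at 1.21 to 8.10 in WT scWAT. Array 2 of WT scWAT had the lowest sum of the 8 adipocyte markers, 8.77 against 10.6 to 11.4 on the other 11 arrays, and the highest sums of the fibroblast and macrophage lists. Its sums of the B lymphocyte list, 4.42, and of the lymphatic and lymph node stroma list, 5.39, were the highest too. A list of 9 skeletal muscle genes was at 9.58 to 12.0 on 5 arrays, namely array 3 of WT scWAT, array 1 of Lr11 -/- scWAT, arrays 1 and 3 of WT BAT and array 1 of Lr11 -/- BAT, and at 0.636 to 2.41 on the other 7. Array 1 of every group carries the number of another array series than arrays 2 and 3, and these are called the first and second series. By their barcodes, all second-series arrays shared the same slide. The first-series scWAT arrays lay on another slide and the first-series BAT arrays on yet another. Depot differences in the first series therefore cannot be told apart from differences between slides.

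**Figure D1:**
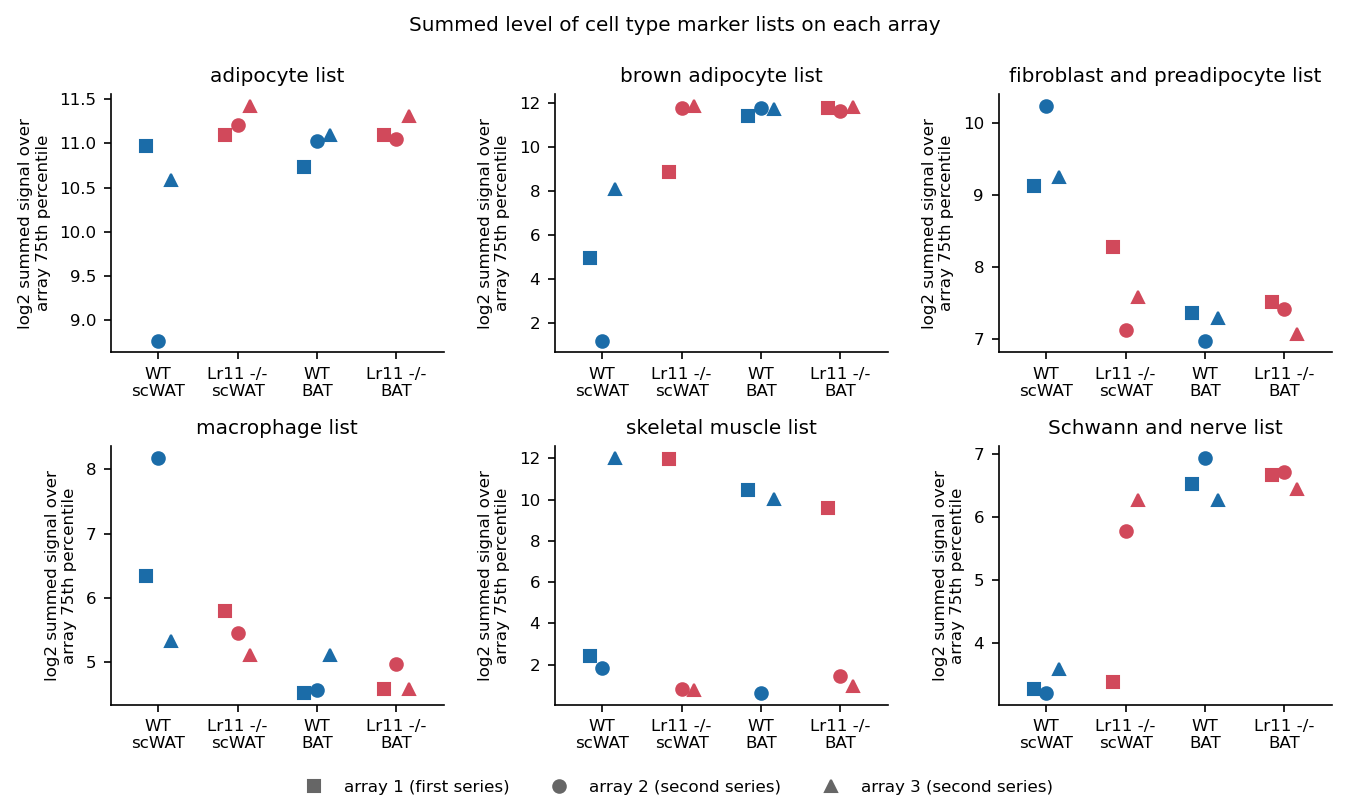
Each panel plots the log2 summed level of a list of cell type markers (y axis, relative to the array's 75th percentile) on each of the 12 arrays by group (x axis). Squares are the first array series, circles and triangles the second. The fibroblast list was at 9.13 to 10.2 in WT scWAT and at 6.98 to 8.28 on all other arrays, and the brown adipocyte list of Lr11 -/- scWAT arrays 2 and 3 lay with BAT.

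In scWAT, Ccn1, Ccn2, Ccn3 and Ccn5 were lower on every Lr11 -/- array than on every WT array. Over all 32121 tested probes, 8.76% were lower without overlap. Ccn1 fell 5.82-fold and Ccn5 fell 16.5-fold past an adjusted p of 0.05 by limma, while Ccn2 and Ccn3 missed that threshold. Ccn4, whose low signal chose it, was not tested. It was 22.2-fold lower against the lowest signal counted as well above background, or 6.09-fold without WT array 2. Of all tested probes 1.87% were called lower, against 2 of the 4 CCN genes that could be tested. The family was chosen through Ccn4 on these same arrays, so its share is only a description.

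Ccn1, the angiogenic and integrin-binding member that cells make within minutes of a stimulus, had levels of 2.68, 3.91 and 4.63 on the WT scWAT arrays and of 1.80, 0.92 and 0.88 on the Lr11 -/- scWAT arrays. All WT values lay above all knockout values, with the closest pair, 2.68 and 1.80, in the first array series. The mean difference was -2.54 (SE 0.50, adjusted p = 0.036 by limma with Benjamini-Hochberg adjustment).

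Ccn1 is the CCN gene called in scWAT for which a RefSeq promoter window could be read, 1 of 2 CCN genes with a window in the table. It is shown for the elements through which this gene is known to be switched on. The window holds 250 bases before and 50 after the gene's start on the minus strand of GRCm38.p6, chr3:145649936-145650235. Capitals mark, in this order, the core CATTCC that TEAD factors bind, a part of the cAMP response element that reads TGACG on the other strand, and the TATA box TATAAA. All 3 were searched on both strands and do not overlap.
Ccn1 promoter: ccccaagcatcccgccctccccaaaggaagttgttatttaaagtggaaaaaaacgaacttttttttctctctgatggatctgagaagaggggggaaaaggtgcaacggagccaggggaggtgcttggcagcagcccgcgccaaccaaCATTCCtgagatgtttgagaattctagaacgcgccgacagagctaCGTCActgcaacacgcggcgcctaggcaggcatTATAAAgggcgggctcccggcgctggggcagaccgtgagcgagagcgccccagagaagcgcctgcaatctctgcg
The TEAD core began 103 bases, the response element part 58 bases and the TATA box 25 bases before the start. Of 32851 windows of this length, 14.7% hold the TEAD core, 20.8% the response element part and 13.6% the TATA box on either strand, so that each match alone is common.

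Ccn2, a partner of TGF-beta in fibrosis, read 1.76, 5.26 and 5.62 on the WT scWAT arrays and 1.42, 0.91 and 0.96 on the Lr11 -/- scWAT arrays. WT arrays 2 and 3 stood far above array 1, where the knockout array of the same series differed by -0.34. The mean difference of -3.12 (SE 0.92) did not pass the threshold (adjusted p = 0.069, limma).

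Ccn3, formerly Nov, an antiproliferative member that opposes Ccn2 in matrix formation, had levels of -1.66, 0.31 and -2.73 for WT scWAT, with -2.84, -4.49 and -4.18 for Lr11 -/- scWAT. The lowest WT array, -2.73, lay just above the highest knockout array, -2.84. The mean difference of -2.47 (SE 0.67) also missed the threshold (adjusted p = 0.056, limma).

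Ccn4 was well above background on the 3 WT scWAT arrays and on none of the other 9. Its brighter probe gave signals of 75.5, 4818 and 242 on the WT scWAT arrays, against 15.4, 11.1 and 5.95 on those of Lr11 -/- scWAT. On the log2 scale these were levels of -3.07, 3.45 and -1.24 against -5.27, -5.28 and -5.97. The WT arrays spread widely, the highest being the array with the low adipocyte and high macrophage markers, and the group SD was 3.36 (n = 3). The measured mean difference was -5.22. Against the lowest signal that counted as well above background on each knockout array, Ccn4 was 22.2-fold lower. Without WT array 2 that fold was 6.09. Such folds are not strict bounds, since some spots brighter than that lowest signal did not count as well above background. The other probe read -4.53, 1.92 and -2.41 for WT scWAT, with -5.13 and -6.44 on knockout arrays 1 and 2, its spot on array 3 being an outlier that was left out. Both probes thus ordered the WT arrays the same way, and the dimmer one gave 9.55-fold, or 2.75-fold without WT array 2.

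Ccn5, which in preadipocytes restrains adipogenic commitment, had levels of 0.61, 4.37 and 2.77 for WT scWAT, with -0.87, -2.07 and -1.44 for Lr11 -/- scWAT. As for Ccn4, WT array 2 was highest and array 1 lowest, and every WT array lay above every knockout array. The mean difference was -4.04 (SE 0.95, adjusted p = 0.044, limma). Ccn6, formerly Wisp3, linked in people to a heritable cartilage disease, was well above background only on array 1 of WT scWAT and array 1 of Lr11 -/- BAT, at signals of 51.3 and 160.1, and between 4.37 and 19.1 on the other 10, and was not tested.

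**Figure D2:**
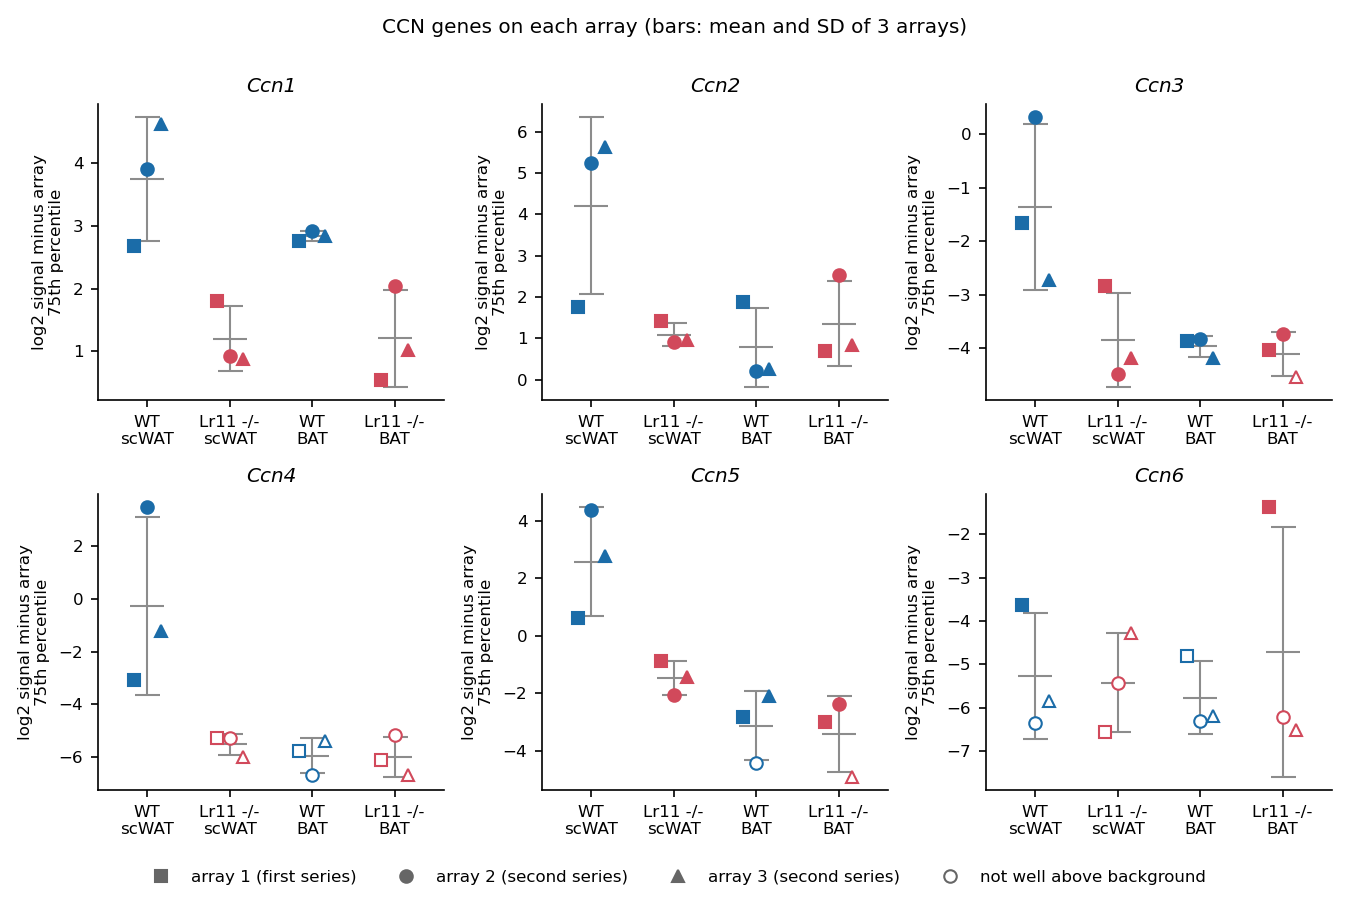
Each panel plots the level of a CCN gene (y axis, log2 signal minus the array's 75th percentile) on the 12 arrays by group (x axis), with bars for the mean and SD of 3 arrays. Filled symbols are well above background and open symbols are not. The WT scWAT arrays lie above the Lr11 -/- scWAT arrays in Ccn1 to Ccn5, and Ccn1 alone is also separated in BAT.

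These scWAT differences were smaller in the first array series than in the second for each gene. With 1 array a genotype, the first series gave -0.88 for Ccn1, -0.34 for Ccn2, -1.17 for Ccn3, -2.20 for Ccn4 and -1.48 for Ccn5. The second series, with 2 arrays a genotype, gave -3.37, -4.51, -3.12, -6.73 and -5.32 in the same order. All 10 values were negative, and each gene kept its direction under every other scaling and left-out array tried and under each filter that it passed, Ccn3, Ccn4 and Ccn5 being out where all 12 arrays had to be well above background. Blocked by array series, Ccn5 lost its call (adjusted p = 0.053, limma) and Ccn1 kept it.

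The calls of Ccn1 and Ccn5 each held in 3 of the 12 fits with 1 array left out. Without any 1 of the BAT arrays, which enter only through the shared estimate of the spread and the adjustment, the adjusted p was 0.053 to 0.070 for Ccn1 and 0.067 to 0.071 for Ccn5 (limma). With the 2 scWAT groups fitted alone it was 0.30 for both, and with no filter on dim probes 0.068 and 0.083. Without Lr11 -/- scWAT array 2 or 3 it was 0.15 or 0.16 for Ccn1 and 0.16 or 0.18 for Ccn5.

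Values also moved with the arrays that stood apart. Without WT scWAT array 2, the difference of Ccn1 was -2.45 (adjusted p = 0.087, limma), that of Ccn5 -3.15 (adjusted p = 0.12) and that of Ccn4 -3.36. Without Lr11 -/- scWAT arrays 2 and 3, Ccn1 was at -1.94, Ccn2 at -2.79, Ccn3 at -1.48, Ccn4 at -4.98 and Ccn5 at -3.45, with the lone knockout array assumed to vary like the other groups, and none of the 4 genes that were tested passed (adjusted p 0.48 to 0.63, limma). Without all 3 of these arrays Ccn4 was at -3.12 and Ccn3 at -0.64, and none of the 4 tested CCN genes was called. Without the 5 arrays with much muscle signal, Ccn3 was called (adjusted p = 0.044) and Ccn1 and Ccn5 were not (adjusted p = 0.057 and 0.12).

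In scWAT, the summed fibroblast and preadipocyte markers were lower on every knockout array than on every WT array, as Ccn1 to Ccn5 were. In BAT these sums overlapped between genotypes, whereas Ccn1 did not. The macrophage sums overlapped between genotypes in both depots. The list of 12 fibroblast and preadipocyte markers, all on the array and well above background on every array, had summed levels of 9.13 to 10.2 in WT scWAT, 7.13 to 8.28 in Lr11 -/- scWAT, 6.98 to 7.36 in WT BAT and 7.07 to 7.52 in Lr11 -/- BAT. In scWAT 3 of the 12 were called lower in the knockout, where 1.87% of all tested probes were, and 0 higher. The list of 9 macrophage markers, 8 of them on the array, had sums of 5.32 to 8.18, 5.10 to 5.79, 4.52 to 5.11 and 4.57 to 4.97 in the same order of groups, with 0 of 8 called in scWAT. The part of these cells in the CCN differences was not tested, and fewer cells of a type cannot be told apart from less RNA per cell in whole tissue.

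In BAT, Ccn1 was the only CCN gene whose arrays were separated by genotype. Its levels were 2.75, 2.92 and 2.84 in WT BAT and 0.54, 2.05 and 1.03 in Lr11 -/- BAT, so the WT arrays lay close together and all above the knockout arrays. The difference of -1.63 (SE 0.50, 95% interval -2.75 to -0.52) had an unadjusted p of 0.0082 and an adjusted p of 1.0 by limma, in a comparison where 0.0187% of all tested probes were called, 2.12% had an unadjusted p under 0.05 and 4.65% were lower without overlap. The exact permutation test gave the smallest p that 3 against 3 arrays allow, 0.1. Any gene without overlap gives this p, so it adds nothing to the separation. The difference was -2.21 in the first array series and -1.34 in the second.

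The other CCN genes overlapped between WT BAT and Lr11 -/- BAT. Ccn2 read 1.87, 0.20 and 0.27 in WT BAT and 0.70, 2.54 and 0.84 in Lr11 -/- BAT, a difference of 0.58 with a 95% interval of -1.46 to 2.62. Ccn3 read -3.85, -3.83 and -4.18 in WT and -4.03, -3.73 and -4.54 in knockout BAT, well above background on 5 of the 6 arrays, with a difference of -0.15 (95% interval -1.62 to 1.33). Ccn5 read -2.82, -4.44 and -2.11 in WT BAT and -3.01, -2.37 and -4.90 in Lr11 -/- BAT, with 1 array of each group not well above background. Its difference was -0.30 (95% interval -2.41 to 1.81).

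Ccn4 was dim in BAT of both genotypes. Its brighter probe had signals of 8.61, 4.40 and 9.54 in WT BAT and of 6.07, 12.3 and 3.98 in Lr11 -/- BAT, none well above background. The difference of -0.04 is between values at background, and neither a fold nor a test is given for it.

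Whether the genotype effect itself differed between depots was tested as an interaction, scWAT effect minus BAT effect. This was -3.70 for Ccn2 (SE 1.30, unadjusted p = 0.017), -2.33 for Ccn3 (SE 0.94, unadjusted p = 0.032) and -3.74 for Ccn5 (SE 1.35, unadjusted p = 0.019) in limma, and their adjusted p were 0.40 to 0.42. For Ccn1 it was -0.91 (SE 0.71, unadjusted p = 0.23). None of the 32121 probes was called in this contrast (0%), and 11% had an unadjusted p under 0.05. For Ccn4 the value was -5.18 with no test. In the second array series alone Ccn2 passed (-5.97, adjusted p = 0.030), while in the first, with 1 array a group, its value was 0.84 and that of Ccn1 1.33.

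**Figure D3:**
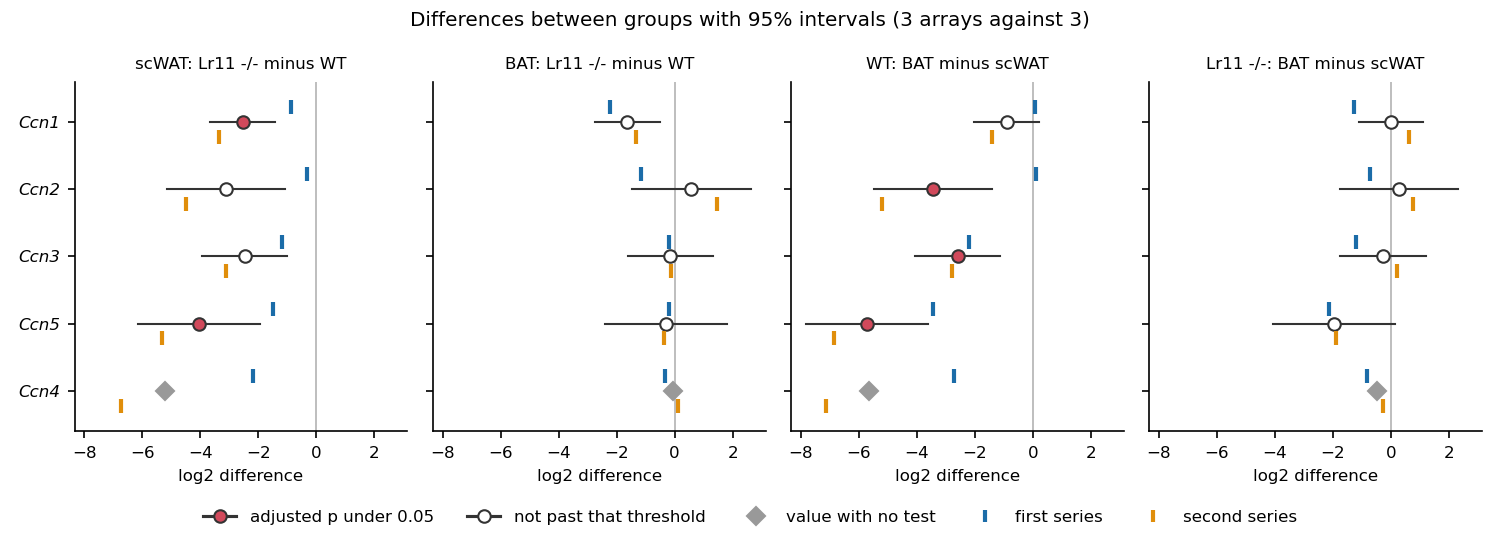
Each panel plots, for a contrast, the log2 difference (x axis) of the 5 CCN genes that passed the filter (y axis), with 95% intervals from limma. Red circles passed an adjusted p of 0.05, grey diamonds are Ccn4 values given without a test, and ticks are the differences within the first and second array series. In scWAT both ticks of every gene lie below 0, and in BAT by genotype those of Ccn1 are at -2.21 and -1.34.

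Between depots of WT mice, Ccn2, Ccn3 and Ccn5 were lower in BAT than in scWAT past the threshold, where 9.13% of all tested probes were called lower. This comparison shares the WT scWAT arrays with the scWAT genotype comparison, so they are not independent. Ccn5 differed by -5.71 (SE 0.95, adjusted p = 0.0046), 52.3-fold, and its arrays did not overlap. Ccn3 differed by -2.60 (SE 0.67, adjusted p = 0.020), also without overlap, as held for 15.9% of all tested probes. Its call was lost with slide as a fixed block (-2.47, adjusted p = 0.076) and in the second array series alone (-2.80, adjusted p = 0.072, limma). These 2 settings are not separate checks, since with slide as a block the depots are compared only within the second series. Ccn2 differed by -3.43 (SE 0.92, adjusted p = 0.023 by limma), but array 1 of WT BAT, 1.87, lay above array 1 of WT scWAT, 1.76.

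Ccn1 did not pass the threshold between the WT depots, at 3.74 ± 0.99 (SD, n = 3) in scWAT and 2.84 ± 0.09 in BAT, a difference of -0.90 with a 95% interval of -2.02 to 0.21 (adjusted p = 0.20, limma). Against the lowest signal well above background, Ccn4 was 23.2-fold lower in WT BAT than in WT scWAT by its brighter probe. By the other probe it was 8.88-fold lower, both given without a test. Without WT scWAT array 2 these folds were 6.37 and 2.56, and the measured difference of the brighter probe was -3.78 instead of -5.65. In the first array series that difference was -2.71. Without WT scWAT array 2 the depot difference of Ccn2 lost its call (-2.91, adjusted p = 0.077, limma), and those of Ccn3 (-1.76) and Ccn5 (-4.82) kept theirs. In the first array series Ccn2 was at 0.11 and Ccn5 at -3.44, with 1 array a group and the 2 depots on different slides. Without the 5 arrays with much muscle signal the difference of Ccn5 was -6.93. That left array 2 as the only WT BAT array, where Ccn5 was not well above background, so only the value is given.

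In Lr11 -/- mice none of the CCN genes was called between depots, where 0.0405% of all tested probes were. Ccn1 was at 1.20 ± 0.52 (SD, n = 3) in scWAT and 1.20 ± 0.77 in BAT, a difference of 0.00 with a 95% interval of -1.11 to 1.12. The array series went opposite ways, with -1.26 in the first and 0.63 in the second. Ccn5 was the most separated, at -1.46 ± 0.60 in scWAT and -3.43 ± 1.31 in BAT, and its arrays did not overlap, as for 9.19% of all tested probes that were lower in BAT. Its difference of -1.97 had a 95% interval of -4.08 to 0.14 (adjusted p = 0.58, limma).

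The order of the group means was thus not the same for each gene. For Ccn5 and Ccn3 it ran from WT scWAT through Lr11 -/- scWAT and then WT BAT to Lr11 -/- BAT. In both, Lr11 -/- BAT did not differ past the threshold from WT BAT or from Lr11 -/- scWAT. For Ccn3 the last 3 groups overlapped, with means of -3.83, -3.96 and -4.10, so their order carries little. Lr11 -/- scWAT and WT BAT, which no contrast sets side by side, did not overlap for Ccn5, with ranges of -2.07 to -0.87 and -4.44 to -2.11, nor for Ccn1, where WT BAT was higher, with 0.88 to 1.80 and 2.75 to 2.92. These 2 groups did not overlap in either direction for 18.9% of all tested probes. For Ccn2 the order was WT scWAT, Lr11 -/- BAT, Lr11 -/- scWAT, WT BAT, with overlap among the last 3. For Ccn1 both WT groups came first and the knockout groups both had a mean of 1.20, although their order differed between the array series. For Ccn4 WT scWAT came first and the other 3 groups, at means of -5.51 to -5.97, were at background.

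Over the 12 arrays, Ccn4 ran most closely with genes high on array 2 of WT scWAT. Of 14709 other named genes tested, the 8 with the highest Pearson r to the brighter Ccn4 probe were Dact3 (r = 0.991), Scarf2 (0.979), 3300005D01Rik (0.979), Gpnmb (0.976), Adgra2 (0.975), B3gnt8 (0.975), Cpxm2 (0.974) and Dkk3 (0.973). Dact3 is an antagonist of WNT signalling, Adgra2 (Gpr124) a WNT7 co-receptor, Dkk3 a secreted member of the Dickkopf family and Gpnmb a glycoprotein of lipid-laden macrophages. After the group means were subtracted, r was between 0.912 and 0.978 for these 8. Ccn4 was at background on 9 of the 12 arrays, so that all r with Ccn4 rest mainly on the 3 WT scWAT arrays, whose values also chose the gene, and on array 2 among them. The arrays share their scaling, and these r are descriptions.

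Of the other CCN genes, Ccn5 was most like Ccn4 (r = 0.93 over the 12 arrays, rank 165 of 14709 genes, and 0.82 within groups). Ccn3 (r = 0.91) and Ccn2 (r = 0.86) followed, and Ccn1 was least like it (r = 0.68 and 0.40 within groups). Ccn1 and Ccn2, which share their quick response to serum and stretch, had r = 0.72 over all arrays and 0.82 within groups, the highest within-group values of the 10 pairs being those of Ccn1 with Ccn2 and of Ccn4 with Ccn5.

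**Figure D4:**
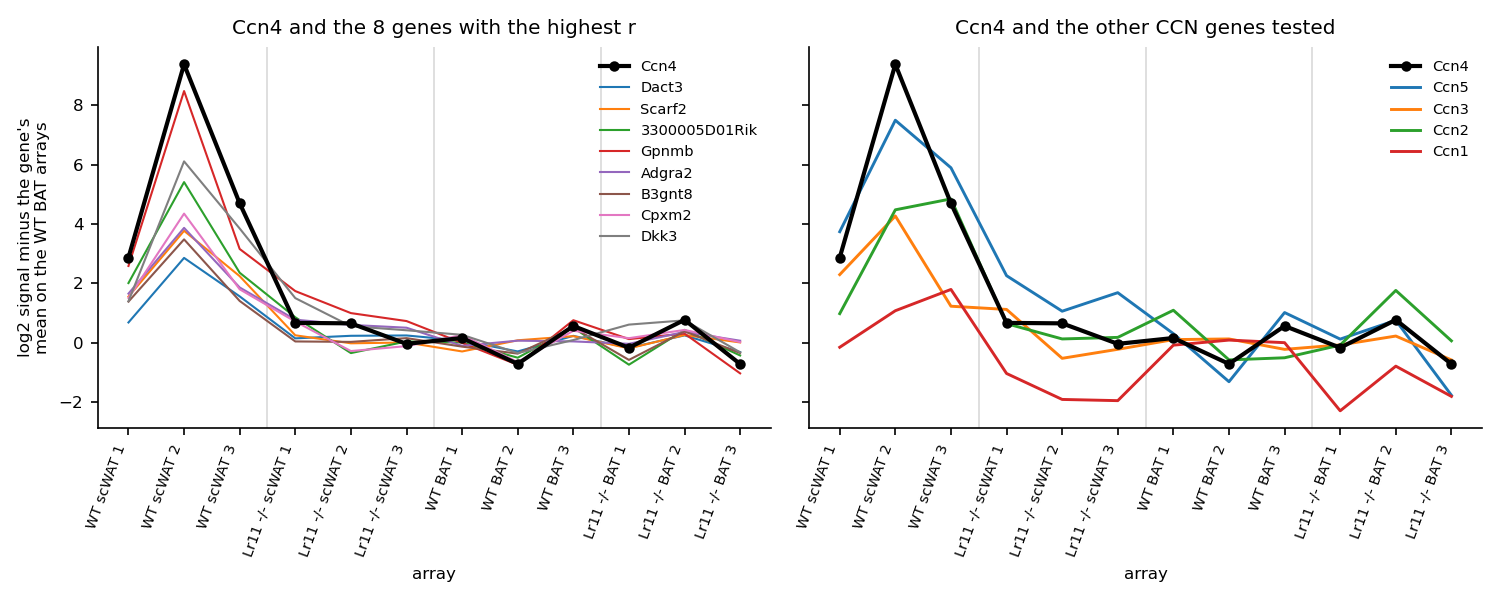
Lines give the level of each gene on the 12 arrays (x axis) minus its own mean on the 3 WT BAT arrays (y axis, log2). On the left, Ccn4 (black) with the 8 genes of highest r, and on the right with the other CCN genes. Array 2 of WT scWAT is the peak of Ccn4, of all 8 genes and of Ccn3 and Ccn5, while Ccn1 and Ccn2 peak on array 3.

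Among the surface partners of CCN proteins, 1 of 15 tested genes was called lower in Lr11 -/- scWAT and 0 higher, where 1.87% of all tested probes were lower and 3.4% higher, with a median difference of -0.95 beside 0.04 over all tested probes. This was Itgb1, the beta1 integrin chain, at -1.003 (SE 0.24, adjusted p = 0.045 by limma). Calls of single genes, in this and the following lists, were not followed under other settings. Over all probes the calls in scWAT, 1692 as reported, ranged from 17 to 6401 with 1 array left out. They were 0 with the 2 scWAT groups fitted alone. In WT BAT against WT scWAT 5 of 15 were called lower and 0 higher, where 9.13% of all tested probes were lower and 15.7% higher. The largest were the proteoglycan Sdc1 at -3.72, the integrin chain Itgb3 at -2.77, Itga5 at -1.89 and Itgav at -1.39. These integrin chains form the vitronectin and fibronectin receptors, to which Ccn1 and Ccn2 bind.

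Of 8 tested secreted WNT antagonists, 2 were called lower in Lr11 -/- scWAT, as were 1.87% of all tested probes. They were Sfrp1 at -2.99 (adjusted p = 0.044) and Wif1 at -2.27 (adjusted p = 0.049 by limma), both of which bind WNT ligands outside the cell, and the list's median was -2.62. Between the WT depots 4 of the 8 listed genes were called lower in BAT, beside 9.13% of all tested probes. These were Sfrp4 at -3.85, Wif1 at -3.79, Sfrp2 at -3.58 and Dkk3, listed as a secreted Dickkopf family member, at -3.78. None of 9 WNT ligands and none of 15 WNT effectors and feedback targets was called in Lr11 -/- scWAT, where 3 and 4 of them, and 27.6% of all tested probes, had an unadjusted p under 0.05 and their medians were -0.35 and -0.23. Between the WT depots the feedback targets Axin2, at 2.25, Notum, at 1.29, and Znrf3, at 1.19, were higher in BAT, as were 15.7% of all tested probes, and 2 genes were lower, with the WNT inhibitor Nkd2 at -1.14. The ligand Wnt9a was at -2.10 and Wnt1 at 0.91 in WT BAT against WT scWAT, both called.

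Of 28 YAP/TAZ, TEAD and target genes other than the CCN genes, 3 were called lower in Lr11 -/- scWAT and 1 higher, beside 1.87% and 3.4% of all tested probes, with a median of -0.51. The RNA-binding protein gene Rbms3 was at -1.81 (adjusted p = 0.017), the guanine nucleotide exchange factor gene Arhgef17 at -1.67 (0.035), the Arf regulator gene Asap1 at -0.95 (0.0499) and the YAP-binding phosphatase gene Ptpn14 at 1.21 (0.040 by limma). In WT BAT against WT scWAT 5 were lower and 2 higher, beside 9.13% and 15.7% of all tested probes, led by Vgll3 at -3.11, Gadd45b at -2.66, Nt5e at -2.49 and Rbms3 at -2.26.

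Of 22 TGF-beta genes, 3 were called lower in Lr11 -/- scWAT and 0 higher, beside 1.87% and 3.4% of all tested probes. Among them were Ldlrad4, a brake on Smad signalling, at -1.54 (adjusted p = 0.034) and the inhibitory Smad7 at -1.37 (adjusted p = 0.038 by limma). Between the WT depots 7 of the 22 were lower in BAT, beside 9.13% of all tested probes, among them Col1a1 at -3.76, Col3a1 at -3.19 and Fn1 at -2.97, of which the collagens are also in the fibroblast list. Of 16 other matricellular genes only Fbln5, an elastic fibre protein, was called in Lr11 -/- scWAT, at -1.24 (adjusted p = 0.041), although the list's median was -1.27 and 9 had an unadjusted p under 0.05, as did 27.6% of all tested probes. In WT BAT 8 of the 16 were lower than in WT scWAT, led by Spp1 (osteopontin) at -6.24, Thbs2 at -4.56, Thbs1 at -3.53 and Fbln1 at -2.95. In Lr11 -/- BAT against WT BAT, and between the Lr11 -/- depots, 0 genes of the 7 lists were called by limma, with 0 to 1 and 0 to 4 genes a list at an unadjusted p under 0.05, beside 2.12% and 9% of all tested probes.

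**Figure D5:**
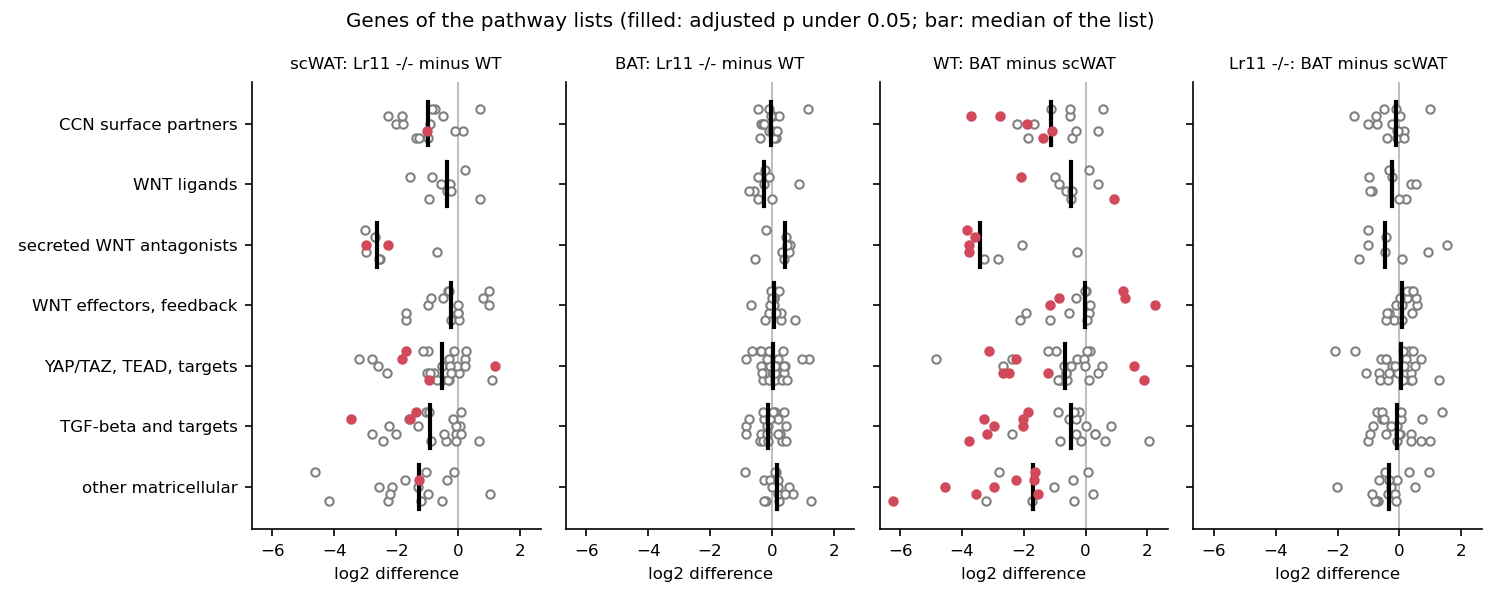
Points are genes of the 7 lists (y axis) and the x axis is their log2 difference in each contrast. Filled points passed an adjusted p of 0.05 by limma and bars are list medians. The medians lie below 0 in scWAT by genotype, at -2.62 for the secreted WNT antagonists, and between -0.26 and 0.42 in BAT by genotype.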

How the data were processed

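The authors hybridised Cy3-labelled cRNA and deposited, for each array, the processed intensity of every spot from Agilent Feature Extraction (version 10.10 in the submitters' processing notes, 10.10.1.1 per the file headers), background-subtracted and detrended within the array and not scaled between arrays. The deposited series table holds the same intensity values (largest difference 0). Groups came from the source labels. No label numbers the replicates, and arrays 1 to 3 of a group are named in accession order.

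From the deposited intensity, spots marked as outliers (128 to 181 an array) were left out, log2 was taken, spots of a probe were averaged and the log2 of the array's 75th percentile was subtracted. No spot was saturated (0). Of 55681 probes, 32121 were tested, those that every array of some group showed well above background. Names came from RefSeq accessions matched to a GRCm38.p6 gene table (27235 of 28685 probes). The array was designed on another assembly, so no coordinates of array probes are given. Those of the Ccn1 promoter window are on GRCm38.p6. A gene was read from its brightest tested probe. For a probe at background in a whole group, a fold was taken against the lowest signal well above background on each array, or its own signal where higher. Such a fold is no strict bound, since brighter spots could still count as not well above background. Ccn5 did so at -4.44 on array 2 of WT BAT, where that lowest signal was -5.18. Sums over marker lists add the linear signals over the percentile.

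All 12 arrays were fitted together in R 4.3.3 with limma 3.58.1 (lmFit, contrasts, eBayes), with Benjamini-Hochberg adjustment over all tested probes and a threshold of 0.05. Permutation tests were exact and two-sided. The script was tested on simulated data. Alternatives were other scaling (quantile, median, none), normexp with an offset of 50, other filters, array series and slide as blocks, array weights, trended and robust eBayes, fits on the compared groups, the other Ccn4 probe, other thresholds and each array left out. The 6 members and the gene lists were chosen with earlier results of these data known. Genes named beside the members were, per list, up to 4 with the largest difference among those called, and the 8 most like Ccn4. A gene of the TGF-beta list that this rule names is counted with the list but not reported here. Drawings were made with Python 3.11.15 and matplotlib 3.10.9.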

Additional observations from a re-analysis of the deposited data

How the results depend on the processing

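The groups hold 3 arrays each, several of them unlike their group. In scWAT by genotype Ccn1, Ccn2, Ccn3, Ccn4 and Ccn5 kept their direction under each alternative that gave a value, while the number called among Ccn1, Ccn2, Ccn3 and Ccn5, 2 as reported, was 0 with no filter or with the 2 compared groups alone, 1 with probes detected on all 12 arrays, with array series or slide as a fixed block, or without the 5 muscle-rich arrays, 3 in the second array series alone (Ccn2 gained, adjusted p = 0.0061), 4 at an adjusted p under 0.1 or an unadjusted p under 0.05, and 0 to 3 with 1 array left out. It was 0 without each BAT array, WT scWAT array 2 or Lr11 -/- scWAT array 2 or 3, and 0 without the latter pair, with or without WT scWAT array 2. With array weights it stayed 2, with Ccn3 gained (adjusted p = 0.020) and Ccn5 lost (0.067). The sets of arrays left out together, the muscle-rich ones included, were chosen after seeing the data. Ccn4 in scWAT was at -2.65 with normexp, -2.20 in the first array series, -3.12 without the 3 arrays that stood apart and -6.61 to -3.36 with 1 array left out. Between WT depots the number called, 3 as reported, was 1 with the all-array filter or the 2 groups alone. No count is given without the muscle-rich arrays, where WT BAT had 1 array. With 1 array left out the number was 1 to 4, and 1 without WT BAT array 2 or 3. There Ccn3 lost its call with slide as a fixed block or in the second series alone and Ccn2 with array weights (adjusted p = 0.051). In BAT 1 gene (Ccn1) and in the interaction 3 had an unadjusted p under 0.05, and the interaction had 1 call in the second series alone. The number was 0 to 0 with 1 array left out in BAT, the interaction and the Lr11 -/- depots. The cause of these losses was not tested.

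Values that changed sign were all of uncalled differences apart from Ccn2 between WT depots, 0.11 in the first series. In BAT, Ccn4 was at 0.14 with quantile, 0.0094 with median scaling, 0.072 with normexp and 0.10 in the second series. It was at 0.076 with array weights, 0.74 without muscle-rich arrays and -0.45 to 0.30 with 1 array left out. Without the muscle-rich arrays WT BAT was array 2 alone, for this value and for that of Ccn5 below. Ccn3 in BAT was at 0.060 with normexp and -0.33 to 0.073 with 1 array left out, Ccn5 at 0.81 without muscle-rich arrays and -0.96 to 0.44, and Ccn2 at -1.17 in the first series and -0.011 to 1.12. Between Lr11 -/- depots, Ccn1 was at -0.080 with quantile, -0.12 with no scaling, -0.0076 with normexp, -0.59 without Lr11 -/- scWAT arrays 2 and 3, with or without WT scWAT array 2, -1.26 in the first series and -0.42 to 0.33 with 1 array left out. There Ccn2 was at -0.37 with slide as a block, -0.061 without those arrays, -0.72 in the first series and -0.32 to 0.60, Ccn3 at 0.20 in the second series or without muscle-rich arrays, 0.18 with array weights and -0.59 to 0.23, and Ccn4 at 0.062 with normexp. In the first series the interaction was 1.33 for Ccn1 and 0.84 for Ccn2, and the WT depot difference of Ccn1 was 0.071.

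Over all probes the calls ranged over the alternatives from 0 to 7365 in scWAT (1692 as reported), 0 to 69 in BAT (6), 0 to 1232 in the interaction (0), 2379 to 10605 between WT depots (7970) and 0 to 3166 between Lr11 -/- depots (13). The median of all probes moved from 0.04 to 0.17 with median scaling and to -0.20 with no scaling in scWAT, and from 0.07 to 0.20 and -0.25 between WT depots. No paired analysis was possible because the labels carry no replicate numbers and do not tie samples of 1 animal.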
